A study of Mus musculus with 282 samples.

Results

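Naive basal prostate stem cells are the cells that were sorted as basal stem cells from the prostates of naive male POET3 mice, the uninflamed controls of a prostatitis study. They were taken here as the cells labelled naive in batch 2 or batch 3 that had at least 1000 detected genes and 50000 counts, which kept 53 cells of batch 2 and 59 cells of batch 3 among the 282 deposited cells of the series. The inflamed cells used beside them came from inflamed POET3 prostates, in the same 2 batches, and 80 and 76 of them passed the same filter. POET3 mice carry a transgene for ovalbumin in the prostate in both conditions, and the sources used here give no age, number of animals or further genotype. The sort used antibodies to CD49f, Sca-1, CD31 and CD45 with a viability dye, and the gates are not stated. Single cells were caught on a Fluidigm C1 microfluidic chip, their RNA was amplified by SMARTer template switching, and the libraries were read from one end. Molecules carry no identifiers in this method, so counts are of reads. No animal is named for any cell, so a batch was treated as 1 sample, its cells were not treated as replicates, and the values below describe cells without p-values unless a test is named.

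Basal cells line the basement membrane of the prostate gland below the secretory luminal cells. They are known for the keratins Krt5 and Krt14, for the transcription factor Trp63, which maintains the basal state, and for integrins that anchor them to laminin. A fraction of them can form both basal and luminal cells in regeneration assays, which is the basis of the stem cell name. Tissue digestion itself is known to induce immediate early and heat shock genes in many cell types.

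The naive cells had a median of 971069 counts and 4739 detected genes in batch 2, and 840863 counts and 3432 detected genes in batch 3. Reads of mitochondrially encoded genes made up a median share of 2.67% and 2.26%. In what follows, levels of different genes are compared per length as TPM, the reads per kilobase of annotated exon scaled to the same total in each cell. CPM, the reads scaled to the same total without the length, serves for 1 gene between groups. A gene counts as found in a cell with at least 1 read. Whether low reads came from the cell itself or from other wells was not tested, so a share of cells with a read is not a share of cells that express the gene.

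In each naive batch 1 pair of cells had nearly the same counts. Over all genes their log2(CPM + 1) values had a Pearson correlation of 0.976 in batch 2 and 0.981 in batch 3, and 1 pair of inflamed cells in batch 2 had 0.958. The highest value of any other pair was 0.77, and the median over all 35778 pairs of cells was 0.498. All 1175 and all 1123 genes with at least 100 counts in the naive pairs differed by less than 2-fold, and the median chi-square per gene was 0.740 and 0.595, where sampling alone gives 0.455. Each pair may be 1 cell read more than once, so the distinct naive cells may number 52 and 58. The values below count every library. With each pair counted once by leaving out its cell of fewer counts, a choice made after seeing the data, 214 genes had a read in every naive cell in place of 213, and the 25 highest genes were the same.

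The label was checked against basal markers. Of 14 basal epithelial markers, 13 had a read in at least 50% of the cells of both batches, and Krt15, Krt17 and Dst, the last a linker of keratin to hemidesmosomes, had a read in every cell. Krt15, a keratin of basal and stem cell layers, had the highest level among the basal keratins in batch 2, with a mean of 4536 TPM (lowest 155.97, median 4133, highest 13163), and a mean of 3863 TPM in batch 3 (lowest 10.1, median 2851, highest 15690). Krt17, a keratin of basal and injured epithelium, was spread more widely, from 9.54 TPM through a median of 1745 to 21838 in batch 2 and from 3.53 through 2123 to 54186 in batch 3. The 2 batches overlapped over nearly all of this range for both keratins.

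Krt14, the type I partner of Krt5, had a mean of 1696 TPM in batch 2 (lowest 19.001, median 1227, highest 9071) and 2066 TPM in batch 3 (lowest 0, median 1392, highest 18123). Krt5 was lower, with a mean of 506 TPM in batch 2 (lowest 4.19, median 367, highest 2101) and 265 TPM in batch 3 (lowest 0, median 73.01, highest 1971). It was found in 53 of 53 cells of batch 2 and in 54 of 59 cells of batch 3 (91.5%, exact Clopper-Pearson 95% interval 81.3 to 97.2%). Trp63 had a lower level than these keratins, with a mean of 112.6 TPM and a median of 18.7 in batch 2 and a mean of 105.6 TPM and a median of 1.52 in batch 3. Trp63 had at least 1 read in all 53 cells of batch 2, of which the lowest was at 0.578 TPM, and in 47 of 59 cells of batch 3 (79.7%, interval 67.17 to 89.025%). After each cell was thinned to 500000 counts, which left out 7 and 4 shallower cells, the shares for Trp63 were 97.8% and 70.9%. Intervals here cover counting error only.

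**Figure D1:**
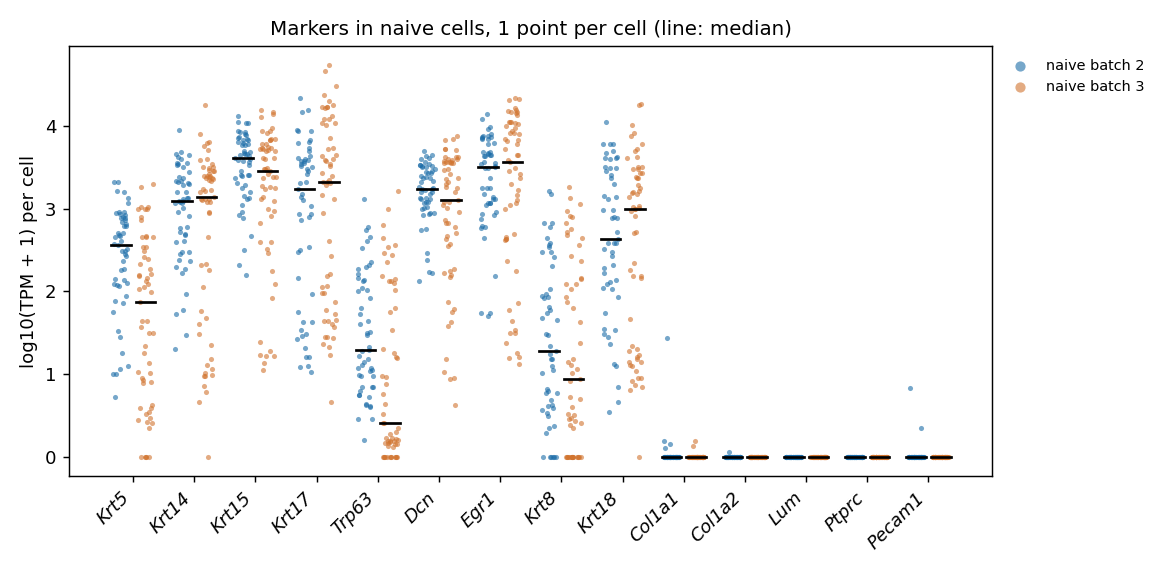
Level of marker genes in each naive cell as log10(TPM + 1), with 1 point per cell, batch 2 in blue and batch 3 in orange and a line at the median of the batch. Basal keratins, Dcn and Egr1 spread over several orders of magnitude, with a set of low cells in batch 3 for most of them, while Col1a1, Col1a2, Lum, Ptprc and Pecam1 lie at or near 0.

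Dcn, which encodes the small matrix proteoglycan decorin and is best known from fibroblasts, had a read in every naive cell. Its mean was 2037 TPM in batch 2 (lowest 133.1, median 1752, highest 4998) and 2074 TPM in batch 3 (lowest 3.21, median 1274, highest 7551). Sparc, another secreted matrix protein, had means of 536 and 585 TPM and was found in 53 of 53 and 53 of 59 cells. The defining fibroblast genes did not accompany them: Lum had no read in any naive cell, Col1a2 had a read in 1 cell, and Col1a1 had a mean of 0.512 TPM in batch 2 and 0.0149 TPM in batch 3. By the rule of at least 3 fibroblast markers at 10 CPM or more, 24 cells of batch 2 and 18 cells of batch 3 were counted, and with Dcn, Sparc and the actin-severing protein gene Gsn left out of the list, a choice made after seeing the data, 0 cells were counted in either batch. The summed level of the other 12 fibroblast markers had a median of 0 TPM in both batches and reached 561 TPM in batch 2 and 1.86 TPM in batch 3.

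Markers of other cell types were low. None of the 10 leukocyte markers had a read in any naive cell, and 0 of 53 and 0 of 59 cells allow shares of up to 5.66% and 5.08% (3 counts of the total). The 8 endothelial markers summed to a median of 0 TPM, with highest cells of 90.2 TPM in batch 2 and 817 TPM in batch 3. Of 6 neuroendocrine markers, 5 had no read and Ncam1 had means of 57.9 and 36.8 TPM. Smooth muscle markers had medians of 4.93 and 0.201 TPM, and their highest cells reached 4036 and 5272 TPM. No cell held 3 markers of the endothelial, leukocyte, neuroendocrine or smooth muscle list at 10 CPM or more.

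Luminal genes were present beside the basal ones. Krt18, a luminal keratin, had a mean of 1649 TPM in batch 2 (lowest 2.47, median 432, highest 11096) and 2255 TPM in batch 3 (lowest 0, median 986, highest 18509). Its partner Krt8 had means of 162.7 and 194 TPM with medians of 17.95 and 7.60. Cldn4, a tight junction claudin, was found in every cell with means of 2461 and 2574 TPM. Of 14 luminal markers, 7 had a read in at least 50% of the cells of both batches, against 13 of 14 basal markers.

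The genes with the highest levels were a mixture of cytoskeletal, mitochondrial, immediate early and growth control genes. The ribosomal RNA gene CT010467.1 was also among them, with means of 10147 TPM in batch 2 and 5587 TPM in batch 3. The 25 highest held 20.8% of all TPM in batch 2 and 22.6% in batch 3. Actb, encoding beta-actin, led in both batches with a mean of 49497 TPM in batch 2 (lowest 15664, median 41632, highest 102170) and 52541 TPM in batch 3 (lowest 2911, median 44583, highest 143560). The mitochondrially encoded mt-Rnr2, mt-Cytb, mt-Nd1 and mt-Co1 were among the first 6, and mt-Cytb, a subunit of respiratory complex III, had means of 16245 and 20125 TPM.

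Sdc4, a heparan sulphate proteoglycan of focal adhesions, was also among the first 6, with a mean of 7938.5 TPM in batch 2 (median 6261) and 17489 TPM in batch 3 (median 9325). Id3 and Id2, which block differentiation factors of the helix-loop-helix class, had means of 6299 and 3820 TPM in batch 2 and 6402 and 3790 TPM in batch 3. The metallothioneins Mt1 and Mt2, which bind zinc and respond to glucocorticoids, had means of 4535 and 4531 TPM in batch 2 and 4205 and 3404 TPM in batch 3. Scpep1, a serine carboxypeptidase, had means of 3343 and 6027 TPM with cells from 5.36 to 31771 TPM in batch 3. Gpx1, an antioxidant glutathione peroxidase, had means of 3689 and 5203 TPM.

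Of the 25 highest genes, 4 were immediate early genes, which are induced within minutes of a stimulus: Atf3, Ccn1, Egr1 and Btg2. The 33 immediate early genes measured together reached a median of 41101 TPM per cell in batch 2 and 44032 TPM in batch 3, against 15152 and 18402 TPM in inflamed cells of the same batches. Atf3, a stress-induced transcription factor, had a mean of 7075 TPM in batch 2 (lowest 69.01, median 6052, highest 22255) and 8314 TPM in batch 3 (lowest 34.9, median 5678, highest 31745). Egr1, a growth factor-induced zinc finger factor, had a mean of 3785 TPM in batch 2 (lowest 48.6, median 3222.5, highest 13935) and 5903 TPM in batch 3 (lowest 12.1, median 3723, highest 21900). Ccn1, a secreted matricellular protein, and Btg2, an antiproliferative gene, had means of 5373 and 4034 TPM in batch 2 and 6101 and 5281 TPM in batch 3. Of the 33 genes, 28 had a read in at least 50% of the cells of both batches and 12 in every cell. How much of this level arose during digestion and sorting was not tested, and a sample fixed without digestion is not analysed here.

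Cell cycle genes were low. The 20 genes of G2 and M phase summed to a median of 3.93 TPM per cell in batch 2 and 0.605 TPM in batch 3, with highest cells of 1388 and 533 TPM. The medians in inflamed cells were also low, at 2.32 and 0.874 TPM. Mki67, a marker of cycling cells, had a read in 5.66% and 10.2% of cells. The S phase genes, which license and copy DNA, summed to medians of 441 and 208 TPM, and 10 of 16 were found in at least 50% of the cells of batch 2 against 2 of 16 in batch 3. The replicative helicase subunit gene Mcm6 had means of 83.9 and 7.88 TPM. Cells of batch 2 had more detected genes than those of batch 3, and with cells thinned to 500000 counts Mcm6 was found in 69.6% and 25.5% of cells.

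A read in every naive cell of both batches was found for 213 genes, of which 180 were protein coding and 26 were pseudogenes. Mitochondrially encoded genes numbered 7 among the 213. Of the 83 ribosomal protein genes in the table, 24 were among them. Of the 213, 77 also had a read in every inflamed cell. At least 50% of cells held a read of 3813 genes in batch 2, of 2437 in batch 3 and of 2332 in both. At the other end, 3234 genes in batch 2 and 3052 in batch 3 had a read in exactly 1 cell.

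A read in every cell did not mean a like level in every cell. With at least 5 reads asked for, 65 genes remained, and with at least 10% of the mean TPM of the batch asked for, a measure added after seeing the data, 15 remained, of which 7 were pseudogenes and 5 ribosomal protein genes. Krt17 had a read in every cell but was at 10% of its batch mean or more in 36 of 53 cells of batch 2 and 36 of 59 cells of batch 3. Trp63 reached that level in 32 and 22 cells, Krt5 in 45 and 35, Dcn in 50 and 44 and Egr1 in 49 and 41. Each of these genes was therefore below 10% of its batch mean in part of the cells, and more often so in batch 3.

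At 10% of the batch mean or more in at least 90% of the cells of both batches were 84 pseudogenes, 43 ribosomal protein genes and 32 other named protein coding genes. The last included the translation factor Eef1a1 with means of 2810 and 2906 TPM, the actin-sequestering Tmsb4x with 3571 and 3176 TPM, the chaperone Hsp90ab1 with 4537 and 5361 TPM, the Notch target Hes1 with 503 and 326 TPM, and the ferritin gene Fth1 with 1184 and 1206 TPM. Genes with near-identical copies were uncertain throughout: pseudogenes held 13.8% and 12.3% of all TPM, while Gapdh, a glycolytic enzyme with many pseudogenes, stood at 3.83 and 4.77 TPM. The counting of reads that fit several places is not stated in the sources used here.

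The 2 naive batches had a Pearson correlation of 0.79 over log2 mean CPM of the genes compared. Of 5121 genes found in at least 20% of cells with a mean of at least 5 CPM in each batch, 1558 (30.4%) differed 2-fold or more, 713 higher in batch 3 and 845 higher in batch 2. Krt17 was 1653 CPM in batch 2 and 3408 CPM in batch 3, and Krt5 was 405 and 191.2 CPM. Clu, a secreted chaperone, was 77.2 and 850 CPM. Dcn (4172 and 3959 CPM) and Actb (45582 and 46073 CPM) were close. With 1 sample a batch there was no test of these differences.

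Cell-to-cell variation was measured for each gene and batch as the log2 squared coefficient of variation of CPM minus its running median over genes of like mean, called excess below. The genes in the top 10% of the 5121 in a batch (10.0%, 512 genes) were called variable and the bottom 10% steady. Of the 512 genes variable in batch 2, 26.8% were variable in batch 3 too, and of the 512 steady genes 392 (76.6%) were steady in both. No gene was variable in one batch and steady in the other. Over the 5121 genes the excess had a Pearson correlation of 0.72 and a Spearman correlation of 0.569 between batches, given as a description since genes share cells and libraries. The lowest excess called variable was 1.20 in batch 2 and 1.18 in batch 3, and the nearest genes outside had the same values at this rounding.

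The genes variable in both batches were mostly rare genes with much of their CPM in 1 cell. In the median gene among them, a single cell held 65.5% of the summed CPM in batch 2 and 73.8% in batch 3, against 25.7% and 29.8% over all 5121 genes. The median gene was found in 33.96% and 27.1% of cells, and 14 of the genes were found in at least 50% of the cells of both batches. Rab32, a small GTPase of lysosome-related organelles, had 99.7% and 84.99% of its CPM in 1 cell of each batch. Tmem68, which led by excess, had 60.1% and 89.4% of its CPM in 1 cell, the lipid transfer protein gene Osbpl8 64.6% and 95.2%, the RNA helicase gene Ddx19b 94.4% and 90.1%, the DNA repair nuclease gene Dclre1a 80.3% and 95.6%, and the deubiquitinase gene Bap1 77.4% and 83.2%. Of the genes variable in both naive batches, 16 were variable in both inflamed batches as well, while 2.68% of all 5121 genes were. Steady genes were mostly pseudogenes and ribosomal protein genes, with 222 and 45 among 392, beside 413 and 70 among all 5121 genes. Of the 392, 282 were steady in both inflamed batches, beside 7.69% of all genes.

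Of the 15 steadiest genes, 12 were processed pseudogenes, such as Rpl18-ps1 with 16.96 and 13.8 mean CPM and a coefficient of variation of 0.63 and 0.65. Among named genes in both steady sets with at least 50% detection, the translation factor Eef1a1 had coefficients of 0.37 and 0.54, where Actb had 0.45 and 0.59 and was not called. Over all 5121 genes 7.65% were steady in both batches and 2.68% variable in both. The lists with the most steady genes were cytoskeleton genes with 4 of 15, translation factors with 3 of 13 and antioxidant genes with 3 of 16. Of 13 basal markers 0 were steady or variable, a count near that background.

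Restricting the measure to the 2251 genes found in at least 50% of the cells of both batches brought out genes with wide, repeated spread. Of 225 variable in each batch (10.0%), 68 (3.02%) were variable in both, and 41 of these stayed so with the highest cell of each gene left out. With near-identical cells counted once, 70 were, 60 of them among the 68, and Fhl1, F3, Itgb6, Cldn1 and Cxcl10 were still called. Fhl1, a muscle and epithelial LIM domain protein, had a median of 33.4 TPM and a highest cell of 16523 TPM in batch 2, and a median of 8.82 and a highest cell of 9558 TPM in batch 3. In batch 2, 52.6% of Fhl1 CPM came from 1 cell, and in batch 3 15.2%. With the highest cell of each gene left out, the excess of Fhl1 in batch 2 was 0.776 in place of 3.50. Fhl1 was therefore not among the 41 genes that stayed variable, while F3 and Itgb6 were. Fhl1 was at 10% of its mean or more in 22 of 53 and 20 of 59 cells.

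F3, tissue factor, the cell surface trigger of coagulation, had medians of 60.04 and 60.96 TPM, highest cells of 12465 and 17895 TPM, and the highest cell of each batch held 14.7% of its CPM. Itgb6, the beta chain of an integrin that activates TGF-beta and is known from injured epithelium, had medians of 5.94 and 4.15 TPM and highest cells of 3347 and 5204 TPM. Cldn1, a tight junction claudin, had medians of 50.7 and 75.2 TPM and highest cells of 4166 and 10776 TPM. At 10% of the batch mean or more were 23 cells in each batch for F3, 20 in each for Itgb6, and 28 and 30 for Cldn1. The other cells were below that level, and whether the levels fall into separate classes was not tested.

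Cxcl10, an interferon-induced chemokine, ranged from 7.69 TPM through a median of 1075 to 25869 in batch 2 and from 0 through 219 to 25791 in batch 3. It was at 10% of its mean or more in 32 of 53 and 29 of 59 cells, and was variable in both inflamed batches too, as were Fhl1 and the receptor gene Notch1. Of the 68 genes, 19 were variable in both inflamed batches, beside 3.95% of the 2251. F3 and Itgb6 had excess values of 1.96 and 1.84 in naive batch 2 and 1.74 and 2.04 in naive batch 3, and of 1.19 and 0.581 in inflamed batch 2 and 0.883 and 1.19 in inflamed batch 3, where neither was in the top 10% of the 2251 genes. Among all 5121 genes, however, Itgb6 was just inside the top 10% in inflamed batch 3. The difference between conditions was not tested. Other list members variable in both batches at this detection were mt-Nd1 among 9 mitochondrial genes, Notch1 among 5 Notch genes, Actg1 among 14 cytoskeleton genes and Gapdh among 8 glycolysis genes, the last 2 with near-identical copies. A count of 1 in lists of this length is too small to be read against the 3.02% of all genes. With the highest cell of each gene left out, mt-Nd1, Notch1 and Gapdh were not called in both batches.

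**Figure D2:**
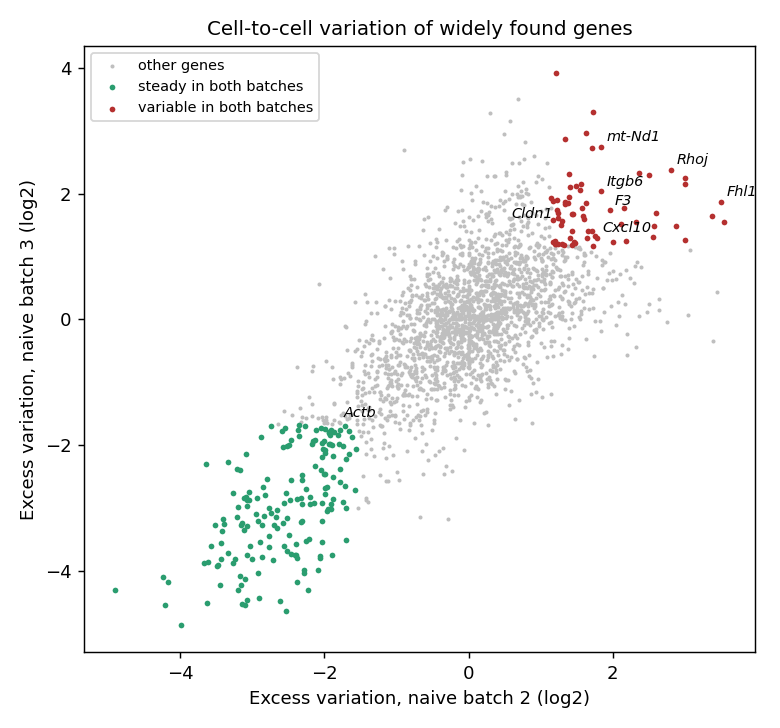
Excess cell-to-cell variation of 2251 genes found in at least 50% of cells, as log2 squared coefficient of variation over the running median, batch 2 on the x axis and batch 3 on the y axis, 1 point per gene. The 68 genes variable in both batches are red and lie at the upper right, with Fhl1, Itgb6, F3, Cldn1 and Cxcl10 named, and the genes steady in both are green and lie at the lower left.

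**Figure D3:**
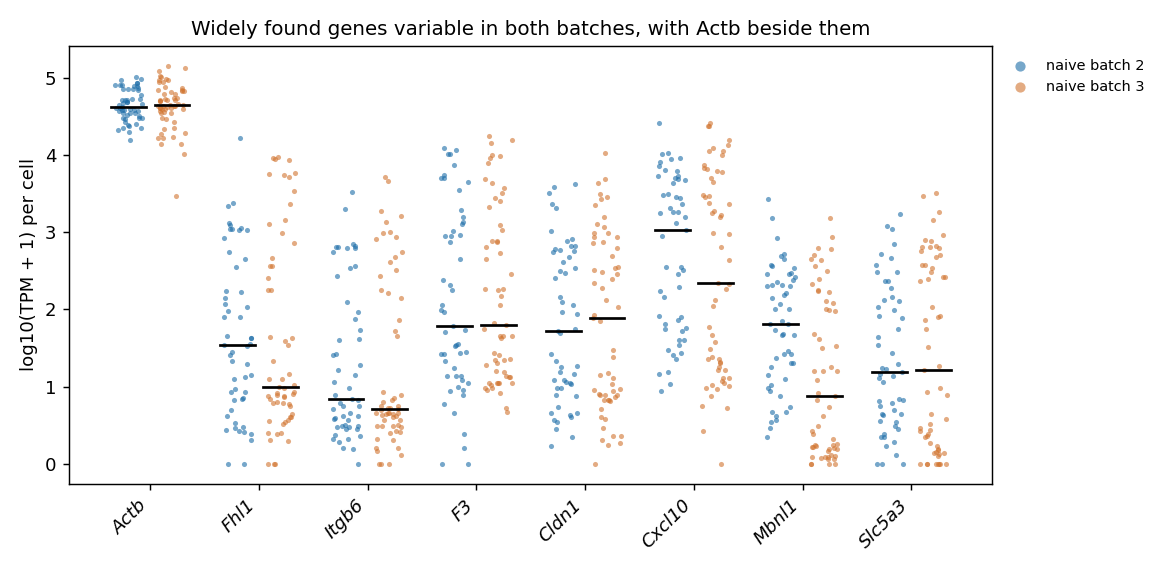
Level in each naive cell as log10(TPM + 1) of 7 widely found genes that were variable in both batches, with Actb beside them, 1 point per cell and a line at the median of the batch. Actb lies within a narrow band, with 1 low cell in batch 3, while the other genes spread over 3 or more log10 units in both batches. A range this wide is not particular to the genes called variable. Krt17, which is not shown here and was not called variable in both batches, ranged from 9.54 to 21840 TPM in batch 2. In batch 3 Krt17 ranged from 3.53 to 54190 TPM.

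Pairs of genes were compared by their Spearman correlation over cells. Over all pairs of the 5121 tested genes, 753 of 13109760 (0.00574%) reached 0.5 in both batches, and the share in inflamed cells was 0.00515%. Of the 9316 pairs among the genes variable in both batches 0 did, where that share would give fewer than 1, so nothing particular to these genes is read from it. With each near-identical pair of cells counted once, 766 pairs reached 0.5 in both batches, 735 of them among the 753. Of the 753 pairs, 656 held a pseudogene, such as Sod1 with Gm8566 at 0.99 in both batches. Pairs of named protein coding genes numbered 58, and the groups they form are described below. They were chosen after seeing the data.

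A set of 7 genes joined heat shock and immediate early genes: the inducible chaperones Hspa1a and Hspa1b, the constitutive Hspa8, the exchange factor Hsph1, the cytosolic Hsp90aa1, and the transcription factors Jun and Egr1. Over its 21 pairs the median correlation was 0.47 in naive batch 2 and 0.54 in naive batch 3, and every pair was positive in both. Of the 21, 9 had been chosen for reaching 0.5 in both naive batches, so these values follow in part from the choice. In inflamed cells of the 2 batches the medians were 0.21 and 0.33. Jun with Hspa1b had 0.61 and 0.65 in naive batches 2 and 3, against 0.18 and 0.39 in the inflamed ones. Jun with Egr1 had 0.50 and 0.64, against 0.38 and 0.23. Egr1 joined the group through Jun only. With the heat shock genes, Egr1 had from 0.25 (Hsp90aa1) to 0.41 (Hspa1b) in naive batch 2. In naive batch 3 these values ran from 0.49 (Hsph1) to 0.65 (Hspa8). They ran from -0.07 to 0.12 in inflamed batch 2 and from -0.04 to 0.25 in inflamed batch 3. The pairs were chosen in naive cells, so a lower value in other cells is not a test of a difference.

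The median was 0.50 and 0.54 with cells thinned to 500000 counts and 0.47 and 0.51 when the number of detected genes was held constant. Without the cells counted by the fibroblast list it was 0.48 and 0.50, and with near-identical cells counted once 0.46 and 0.52. All of these settings reused cells in which the group was chosen. Hspa1a and Hspa1b are near-identical copies, and their correlation of 0.70 and 0.64 may include shared reads. Hspa1b had a mean of 360 TPM in batch 2 (lowest 1.20, median 186.6, highest 2332) and 1004 TPM in batch 3 (lowest 1.37, median 401, highest 7370). Hsph1 had means of 291 and 474 TPM, and Jun 1086 and 1148 TPM. All 3 were found in every naive cell, at levels that differed by over 1000-fold between cells for Hspa1b.

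**Figure D4:**
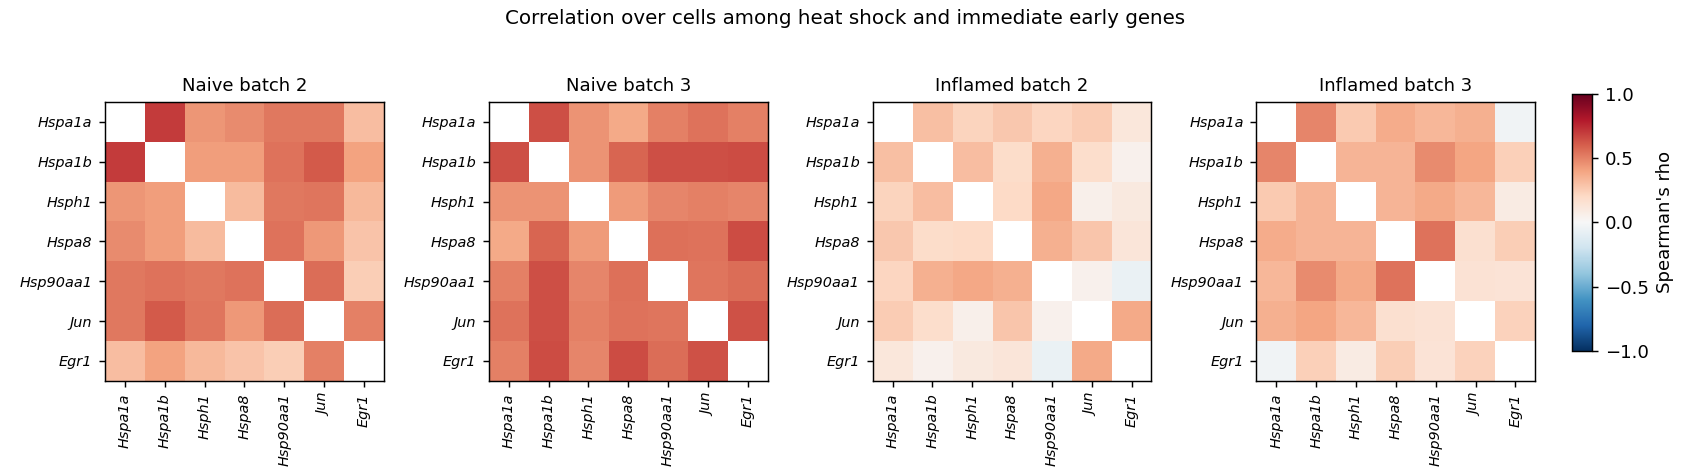
Spearman correlation over cells of log2(CPM + 1) between 7 heat shock and immediate early genes, in naive and inflamed cells of each batch, from blue (negative) through white (0) to red (positive). Every pair is positive in both naive panels, with medians of 0.47 and 0.54, and the inflamed panels are paler, with medians of 0.21 and 0.33. The genes were chosen by pairs that reached 0.5 in both naive batches.

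The promoters of this group are shown because their genes moved together. Of the 7 genes, 4 had an entry in the RefSeq promoter table for GRCm38.p6 (250 bases before to 50 after the start). All 4 held the heat shock element GAANNTTC on either strand, a palindrome that heat shock factors are known to bind, beside 9.04% of the 27025 genes of the table. Hspa1a and Hspa1b share most of their promoter, so they are not independent. The promoter windows of Dnajb1, a heat shock co-chaperone gene outside the group, held 0 such elements. The element stands in capitals below.
Hspa1a promoter, chr17:34972107-34972406, minus strand: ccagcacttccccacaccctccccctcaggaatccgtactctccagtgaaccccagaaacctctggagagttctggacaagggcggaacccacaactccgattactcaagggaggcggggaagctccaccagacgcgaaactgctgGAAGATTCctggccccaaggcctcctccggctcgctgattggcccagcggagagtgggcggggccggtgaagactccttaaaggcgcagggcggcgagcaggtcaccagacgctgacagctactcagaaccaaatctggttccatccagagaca
Hspa1b promoter, chr17:34959189-34959488, minus strand: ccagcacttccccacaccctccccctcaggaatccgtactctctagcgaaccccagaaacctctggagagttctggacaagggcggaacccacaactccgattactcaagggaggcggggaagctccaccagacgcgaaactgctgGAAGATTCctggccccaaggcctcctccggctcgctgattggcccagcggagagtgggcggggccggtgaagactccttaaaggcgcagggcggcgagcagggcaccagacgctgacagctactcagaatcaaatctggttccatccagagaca
Hsph1 promoter, chr5:149636287-149636586, minus strand: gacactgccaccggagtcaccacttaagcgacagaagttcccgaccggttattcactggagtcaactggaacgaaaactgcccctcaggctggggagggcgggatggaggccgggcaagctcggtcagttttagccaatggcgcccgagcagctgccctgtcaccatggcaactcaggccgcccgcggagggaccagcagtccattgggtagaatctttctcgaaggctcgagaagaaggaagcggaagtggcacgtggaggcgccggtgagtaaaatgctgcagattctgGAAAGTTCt
Jun promoter, chr4:95052173-95052472, minus strand: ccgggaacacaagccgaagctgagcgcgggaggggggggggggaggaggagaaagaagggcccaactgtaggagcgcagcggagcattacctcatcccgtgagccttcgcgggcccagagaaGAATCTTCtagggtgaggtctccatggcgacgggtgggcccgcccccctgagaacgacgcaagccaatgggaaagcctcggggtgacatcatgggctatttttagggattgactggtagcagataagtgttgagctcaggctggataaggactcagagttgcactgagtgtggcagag
Counted from the annotated start, the element began at base -104 in Hspa1a and Hspa1b, at base -128 in Jun and at base 41 in this Hsph1 window. A TATAAA box, the CRE TGACGTCA, the AP-1 site TGANTCA and the CArG box were in none of the 4 windows, beside 15.7%, 2.03%, 8.97% and 1.81% of all genes. A match is a description and says nothing of binding in these cells.

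A second group of 5 genes held Cldn4, the histone demethylase gene Kdm6b, the kinase gene Pim1, the cell cycle checkpoint protein gene Sfn and the TWEAK receptor gene Tnfrsf12a. Its 10 pairs had a median correlation of 0.46 in naive batch 2 and 0.54 in batch 3, and of 0.43 and 0.35 in inflamed cells. All 10 were positive in both naive batches. Of the 10, 4 had been chosen for reaching 0.5 in both, so the naive values follow in part from the choice. Cldn4 with Kdm6b had 0.66 and 0.56. Kdm6b had means of 173.5 and 242 TPM and Tnfrsf12a 839 and 863 TPM. Of the 4 genes with a RefSeq promoter, 1, Cldn4, held the AP-1 site.

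The remaining groups, chosen by the same rule, were of known families. mt-Co1, mt-Cytb and mt-Nd1, encoded on the mitochondrial genome, correlated at 0.52 to 0.67 in naive cells. Mt1 with Mt2 had 0.69 and 0.71. A group of 18 genes was nearly all ribosomal protein genes, with a median of 0.52 in batch 2 and 0.41 in batch 3. Among the 6 marker genes Krt5 with Trp63 had 0.30 in batch 2 and 0.32 in batch 3, while Krt14 with Krt17 had 0.23 in batch 2 and 0.57 in batch 3 and Krt17 with Egr1 had -0.11 and -0.48.

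Against inflamed cells, counts were summed per condition and batch and tested with edgeR's quasi-likelihood test with batch in the model, the reading of the values being naive minus inflamed. Of 14713 genes, 0 (0%) passed an adjusted p of 0.05, with 1217 at an unadjusted p under 0.05 and 1461 called by DESeq2. The lowest adjusted p was 0.568. So no gene is called here, and the genes with the lowest p are given by their values. Egr1 was 5671 and 9366 CPM in naive batches 2 and 3 and 376 and 802 CPM in inflamed ones, a log2 difference of 3.73 (SE 0.27). Insig1, a brake on sterol synthesis, was 347 and 448 against 13.8 and 26.9 CPM, and Dnajb1, a heat shock co-chaperone, 2646 and 4496 against 456 and 864 CPM.

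In the other direction, H2-Aa, a class II antigen presentation gene, was 0 and 0.105 CPM in naive cells and 160 and 1280 CPM in inflamed cells. Irgm1, an interferon-induced GTPase, was 1.65 and 3.08 against 303 and 637 CPM, and Ptgs2, the inducible cyclooxygenase, was 106.2 and 120 against 1780 and 2027 CPM. The genes named were chosen by lowest p, 10 in each direction, so their separation follows from the choice, and over all 14713 genes the naive and inflamed sums did not overlap for 45.6%. Of 17 heat shock and chaperone genes, 15 were higher in naive cells in both batches, with a median log2 difference of 1.28 against -0.10 over all genes tested. Of 33 immediate early genes, 21 were higher in both batches, with a median of 1.22, and of 15 sterol synthesis genes 12, with a median of 1.87. Of 14 antigen presentation genes 13 were lower in both, and of 20 genes of G2 and M phase 18. Several genes of both lists had no read in a naive batch, so no median fold is given. The G2 and M phase genes had medians per cell of 3.93 and 0.605 TPM in naive cells and 2.32 and 0.874 TPM in inflamed cells. Their highest cells were at 1388 and 533 TPM in naive and 6278 and 5196.5 TPM in inflamed cells. Mitochondrial reads had a median share of 2.67% and 2.26% in naive and 3.73% and 2.82% in inflamed cells, and the part of this difference in the values was not tested. Over all 14713 genes, both batches had the naive value above in 4068 and below in 4542. None of these counts rests on a gene that passed the adjusted test.

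**Figure D5:**
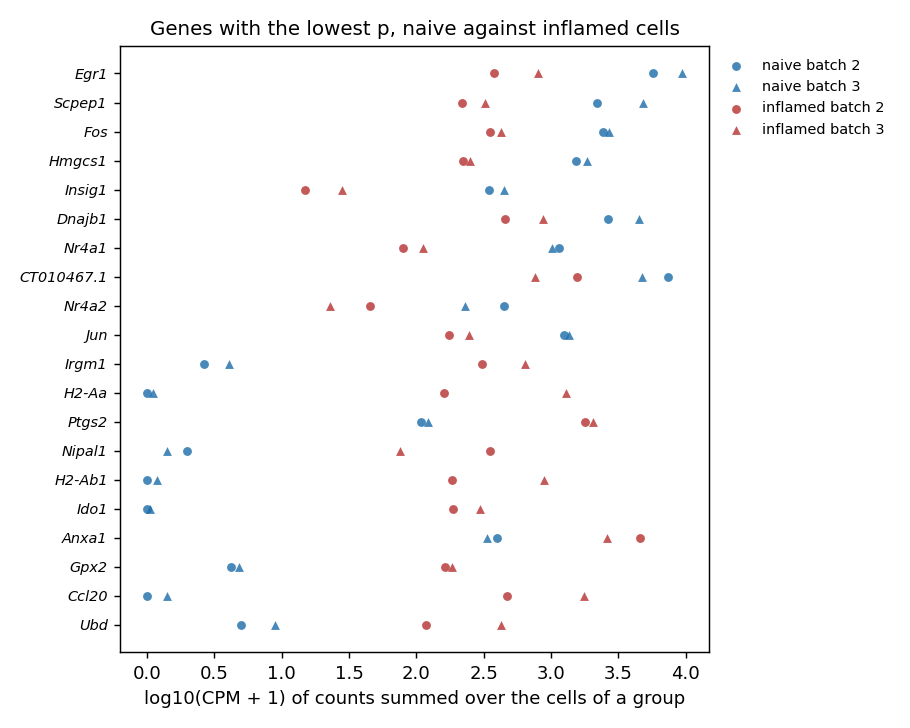
Level of the 20 genes with the lowest p in naive against inflamed cells, as log10(CPM + 1) of counts summed over the cells of a group, circles for batch 2 and triangles for batch 3, naive in blue and inflamed in red. In each row the 2 naive values lie on one side of the 2 inflamed values, and no gene passed an adjusted p of 0.05.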

How the data were processed

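Each cell was 1 sequenced library. The authors deposited whole-number read counts, not normalized, in 1 table per batch with 48440 gene rows. TopHat2, HTSeq, R 3.4.1, Seurat 1.4 and GRCm38.p6 are named, without roles, per the submitters' processing notes. Symbols and exon lengths came from GENCODE for GRCm38 (48058 rows matched). Totals were 52061533 and 50105953 counts over the kept naive cells of batches 2 and 3.

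TPM used the union of exons. The running median took 101 genes. Correlations used log2(CPM + 1). Sums were tested with edgeR 4.0.16 (TMM, filterByExpr, Benjamini-Hochberg), and DESeq2 1.42.0 and limma 3.58.1 were alternatives. Scripts were tested on simulated data. No doublet caller was run. Some genes are not reported here. P-values between the 4 sums rest on 1 residual degree of freedom and may measure technical spread. The members and gene lists were chosen with earlier results of these data known. Genes were named by fixed ranks: the 25 highest levels, genes in every cell, the 25 most variable and 15 steadiest genes, the leading pairs and groups, the 10 lowest p each way, and members of the lists; Clu and the variable genes found in 50% of cells were chosen after their values were seen.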

Additional observations from a re-analysis of the deposited data

How the results depend on the processing

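The number of genes variable in both batches fell to 68 when at least 50% detection was asked for and to 46 with the top 5%. With the SD of log2(CPM + 1), or without the highest cell of each gene, the number stayed within 1.5 times, but 7 and 29 of the genes were shared. The 0 pairs among variable genes became 1 at a correlation of 0.4. Over all tested genes the 753 pairs became 2031 at 0.4 and 459 at 0.6. Of the 58 pairs of named genes, 31 were kept with thinned cells, 49 with detected genes held constant and 35 without cells holding other-type markers and 51 with near-identical cells counted once. The 213 genes found in every cell became 65 at 5 reads and 15 at 10% of the batch mean, and leaving out 1 batch gave 230 and 459. The 42 naive cells with markers of other types became 89 with 2 markers, 94 with any read and 0 with Dcn, Sparc and Gsn left out. DESeq2 called 1461 genes between naive and inflamed cells where edgeR called 0; the cause was not tested. Leaving out 1 batch changed the sign of the naive minus inflamed log2 value, with no test, for Krt14 (0.39 without batch 2, -0.27 without batch 3) and for Dcn (-0.0093 and 0.22). The fit with no replicate block called 0 genes, with 1836 at an unadjusted p under 0.05. Counting near-identical cells once, chosen after seeing the data, kept the counts of variable genes, pairs, genes in every cell, batch differences and other-type cells within 1.5 times, and edgeR again called 0 genes, with 1249 at an unadjusted p under 0.05.

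Without molecular identifiers, amplification and read sharing between copies limit levels, and depth limits shares of rare genes.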

Other observations

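Many genes of basement membrane attachment had reads in naive cells, as they did in inflamed cells. Of 22 hemidesmosome and basement membrane genes, 13 had a read in at least 50% of the cells of both batches, and 1 had a read in every cell. Over all 48440 gene rows 2332 reached that 50%, which is the background for the other lists of this section too. Taken by batch, 17 and 13 of the 22 reached it in naive batches 2 and 3, and 16 and 15 in inflamed ones. Itga6, the CD49f integrin chain used in the sort, had means of 120.9 and 78.6 TPM, and Itgb4, its hemidesmosome partner, 50.3 and 29.6 TPM. Of 16 stem and progenitor markers, 7 were found that widely: Ly6a, the Sca-1 antigen used in the sort, had means of 1359 and 1479 TPM, while Bmi1, a Polycomb gene of stem cell renewal, was found in 8 of 53 and 5 of 59 cells. The Notch ligand gene Jag1 had a read in every naive cell, with means of 873 and 838 TPM.

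Defb50, a prostate-expressed defensin gene, had a mean of 3403.5 TPM in batch 2 (median 1764) and 1396 TPM in batch 3 (median 187.3), against 605 and 532 TPM in inflamed cells. It was the 1 gene of 14 prostate secretory genes found in at least 50% of cells of both naive batches. By counts of genes, the list as a whole did not follow Defb50 against inflamed cells. Of 13 genes tested, 3 were higher in naive cells in both batches and 3 were lower in both. The 14 genes summed to medians of 1770 and 871 TPM per naive cell and 1739 and 1955 TPM per inflamed cell in batches 2 and 3. Tgm4, a secreted transglutaminase, had 26.8 TPM in batch 2 and 0.0183 TPM in batch 3. The epithelial cadherin gene Cdh1 had a read in every naive cell, with means of 583 and 640 TPM, and 12 of 22 cell junction genes were found in at least 50% of cells of both batches. Cdkn1b, an inhibitor of cell cycle entry, had means of 48.2 and 56.2 TPM, and Cdkn2a had no read in any naive cell.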
